A study of Canis lupus familiaris with 8 samples.

Results

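The proteins of the sarcomere and of the Z disc were followed at the mRNA level in the left ventricle of dogs with alloxan-induced diabetes (DM) and of control dogs. Members were the probe sets of the Affymetrix Canine Genome Array whose single gene symbol is that of a myosin heavy or light chain, myosin binding protein C, actin, tropomyosin, troponin, titin, a myomesin, nebulin or a related protein, tropomodulin, leiomodin, alpha-actinin or another Z disc protein, filamin, desmin or alpha B-crystallin. This gave 141 probe sets of 63 genes among 23836 probe sets tested, and all 141 were kept, with no filter on signal. The smooth muscle and non-muscle forms that carry the same gene names (11 genes, 30 probe sets) are described apart from the 111 probe sets of striated muscle forms. No probe set was named for MYH6 or TNNI1. The control dogs were D5, D6, D7 and D8, and the DM dogs were 0292, 0294, 1087 and 1111, with 1 array per dog. All were male mongrel dogs, labelled with a weight of 23 to 27 kg, and all had been chronically instrumented by surgery. DM dogs had received 40 to 60 mg/kg of intravenous alloxan monohydrate, which destroys pancreatic beta cells, and the heart was sampled 4 weeks later. Control dogs had no alloxan. The question was which genes of the heart differ in expression after weeks of diabetes. The toxin was not separated from the loss of insulin in this design. The labels call the material total cardiac cells, and the RNA came from left ventricular tissue, so that fewer cells of a type and less RNA per cell cannot be told apart.

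The sarcomere is the contractile unit of striated muscle. Thick filaments of myosin pull on thin filaments of actin, and the troponin and tropomyosin complex on the thin filament opens this reaction when calcium binds to troponin C. Titin runs from the Z disc to the M band and acts as a molecular spring. At the Z disc, alpha-actinin cross-links the thin filaments of neighbouring sarcomeres, and a dense set of LIM and PDZ domain proteins ties the filaments to signalling and to the cell membrane. In the ventricle the main myosin of large mammals is the product of MYH7, and diseased hearts are known to switch between adult and fetal isoforms of several of these proteins.

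Signals are given as log2 values after quantile normalization and addition of 16, fold changes as DM minus control on that scale with their SE, and group means ± SD with n = 4 dogs each. The offset makes changes of weak probe sets look smaller than they were. Detection calls were not used, so weak signals may lie at background. The signal of a probe set depends on its probes too, so a stronger signal of one probe set than of another is no measure of more mRNA. The number of arrays limits the precision. By limma with Benjamini-Hochberg adjustment over all probe sets, 0 of the 141 members had an adjusted p under 0.05, against 4 of 23836 tested (0.0168%). The lowest adjusted p of a member was 0.061. At an unadjusted limma p under 0.05, 36 members (25.5%) of 25 genes were lower in DM, against 8.87% of all probe sets, and 9 members (6.38%) of 6 genes were higher, against 7.84%. The criteria of the methods ask for a nominal P of at most 0.01 in a two-class test together with a change of 2-fold or more. They were met by 14 members (9.93%) on the lower side, against 2.52% of all, and by 2 (1.42%) on the higher side, against 2.45%. After adjustment this test called 0 members and 0.0923% of all probe sets. In 20 members (14.2%) each DM dog was below each control dog, against 5.85% of all, and in 5 (3.55%) each DM dog was above each control dog, against 4.93%. The median fold change was −0.53 log2 over the members and 0.06 over all probe sets tested. Of the members, 90 were lower and 51 higher in DM.

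Among the 28 Z disc probe sets 23 were lower, with a median of −1.12. At an unadjusted p under 0.05, 11 of the 28 were lower and 0 higher, against 8.87% and 7.84% of all probe sets. Desmin and alpha B-crystallin (5 probe sets) had a median of −1.55. The thick filament (26 probe sets) had 13 lower and 13 higher and a median of 0.19, and the thin filament (29 probe sets) had 15 lower and 14 higher and a median of −0.25. Titin and the M band (23 probe sets) had a median of −0.29, and the smooth muscle and non-muscle forms one of −0.62. These medians depend on how the arrays are scaled, since the median of all probe sets moved to −1.65 when the arrays were scaled to the hybridization controls, to 0.34 without quantile normalization and to −0.25 with median centring. Relative to the median of all probe sets, the members' median was −0.59 after quantile normalization, −0.71 with the hybridization controls, −0.57 without quantile normalization or with median centring, and −0.62 with cyclic loess. The median of the Z disc on that relative scale was −1.23 to −0.99 and that of the thick filament 0.14 to 0.44 under these scalings.

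**Figure D1:**
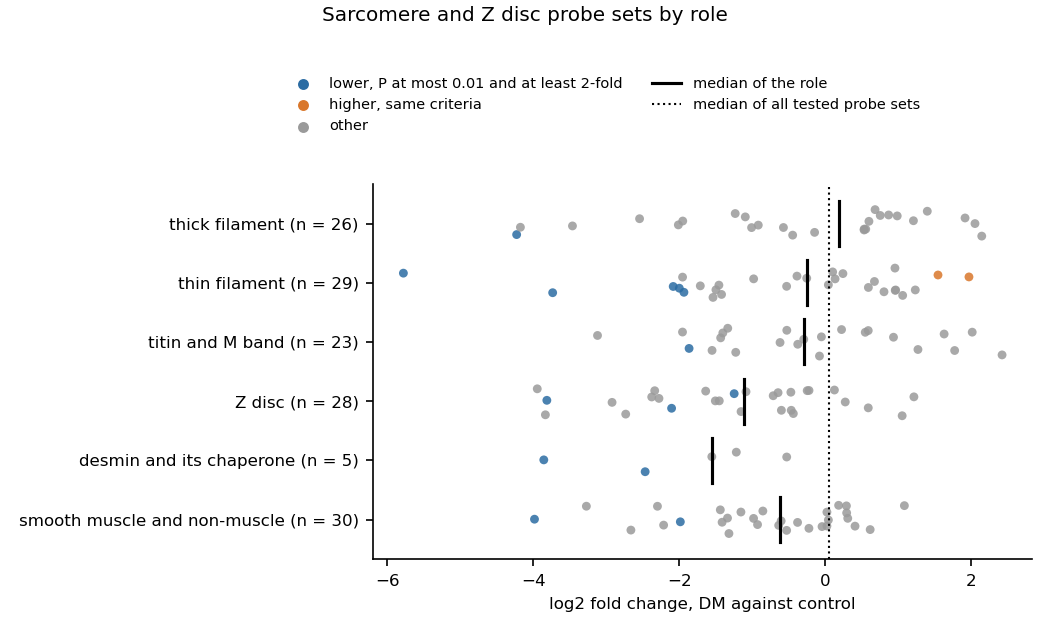
Each point is 1 of the 141 probe sets, placed by its log2 fold change (DM against control, horizontal axis) in the row of its role; black bars are the medians of the roles and the dotted line the median of all 23836 probe sets. The 14 blue points met the criteria of the methods on the lower side and the 2 orange points, LMOD2 and LMOD3, on the higher side, where LMOD2 turns to −0.90 when the arrays are scaled to the hybridization controls.

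Fold changes moved with the strength of the signal on these arrays, and sarcomere transcripts are abundant in the heart. All probe sets were therefore ranked by mean signal over the 8 arrays and put into 5 classes of equal size. Of the 141 members, 56 lay in class 5, with the strongest signals, and 11 of the 14 lowered members past the criteria were among them. The members of class 5 had a median fold change of −1.43, against −0.24 for all 4767 probe sets of the class. At an unadjusted limma p under 0.05, 48.2% of these members were lower and 7.14% higher, against 17.3% and 10.4% of all probe sets of the class. In class 4 the median was −1.13 for 28 members and −0.37 for all. In class 1, with the weakest signals, it was 0.24 for 18 members and 0.47 for all, and 0 of these members were lower at an unadjusted p under 0.05. The probe sets that can match several transcripts (suffix _s or _x, 47 members) had a median of −1.23, and the 94 with no suffix had −0.34. With 1 probe set per gene, that with the highest mean signal, the median over 63 genes was −0.47.

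**Figure D2:**
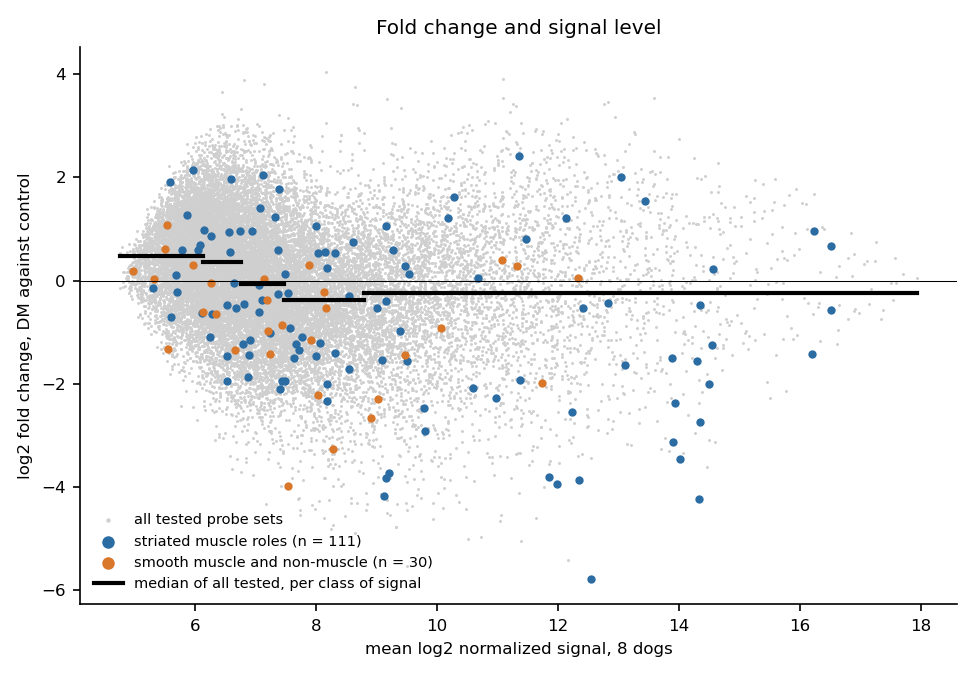
Log2 fold change (DM against control, vertical axis) is plotted against the mean log2 normalized signal over the 8 dogs for all tested probe sets (grey), members of the striated muscle roles (blue) and the smooth muscle and non-muscle members (orange); black lines are the medians of all tested probe sets in each of the 5 classes of signal. On the right, the members of class 5 have a median of −1.43 where all probe sets of the class have −0.24, and the lowest point of the plot is TNNI3 at −5.78.

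Control dog D8 and DM dog 1111 lay between the groups in many members. D8 was the lowest control dog in 34 of the 36 members that were lower at an unadjusted p under 0.05, and the highest control dog in 7 of the 9 that were higher. Dog 1111 was the highest DM dog in 25 of those 36. In the 14 lowered members past the criteria, the median difference from the mean of D5, D6 and D7 was −0.90 in D8, −1.98 in 1111 and −3.10 to −2.97 in the other DM dogs. These members were chosen for lower signals in DM. Over all 141 members the median difference was −0.64 in D8, −0.59 in 1111 and −0.98 to −0.88 in the other DM dogs, so that D8 lay below 1111. The hybridization controls, transcripts added to every sample in fixed amounts, also set D8 and 1111 between the other dogs. Their mean log2 deposited signal was 13.09 to 13.36 in D5 to D7, 15.77 in D8, 15.17 in 1111 and 16.12 to 17.71 in the other DM dogs (two-sided exact permutation test of DM against control, p = 0.0571). Their part in the results was not tested. The 3′ minus 5′ difference of the actin controls, which widens when RNA is degraded or labelling stops early, was 1.35 to 3.04 log2 on the deposited scale in D5 to D7, 7.79 in D8 and 3.59 to 7.71 in DM dogs (exact permutation test, p = 0.229). That of the GAPDH controls went the other way between the groups, with 2.17 to 3.51 in D5 to D7, 6.08 in D8 and 0.37 to 3.90 in DM dogs (exact permutation test, p = 0.171). In both, D8 had the widest difference of all dogs. Without D8, 10 members had an adjusted limma p under 0.05, all lower, and without 1111 12 had, all lower, and without D8 and 0292 together 15 had, of which 13 were lower. The criteria of the methods were met by 25 members without D8 and by 26 without 1111, but by 7, 8 and 7 without D5, D6 and D7, and by 10 without 0294, against 16 with all dogs. How many of all probe sets passed in the fits with dogs left out is not given here, so these counts cannot be read as particular to the members. The methods place the RNA extraction of control and DM hearts at the same time. The control and DM arrays have separate runs of record numbers and differently styled titles in the deposit, and no scan date was used here, so that a batch of arrays cannot be told apart from diabetes.

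In the thick filament, both probe sets of the ventricular light chain MYL2 were below the control signals in each DM dog, while those of MYL3 disagreed. MYL2 is the regulatory light chain of ventricular myosin. Its signal (probe set 1582670_s_at) was 16.84, 17.11, 16.79 and 15.00 in control dogs D5, D6, D7 and D8, and 11.81, 11.99, 11.10 and 13.95 in DM dogs 0292, 0294, 1087 and 1111. The groups did not overlap, and D8 and 1111 came nearest to each other. The fold change was −4.23 ± 0.74 (limma adjusted p = 0.061), which is 18.7-fold lower. It was −3.01 without quantile normalization, −3.60 with median centring, −3.28 with cyclic loess and −5.43 with scaling to the hybridization controls. The other MYL2 probe set, 1605889_at, gave −3.46 ± 0.82 (adjusted p = 0.088), also without overlap. For MYL3, the essential light chain of ventricle and slow muscle, 1596171_s_at had 12.84, 13.99 and 12.02 in D5, D6 and D7 and only 6.00 in D8, against 7.77, 8.11, 4.85 and 7.43 in the DM dogs. D8 thus lay within the range of the DM dogs, and the fold change was −4.18 ± 1.40 with all dogs (adjusted p = 0.168) and −5.91 without D8. The second MYL3 probe set, 1596724_at, gave 0.53 ± 0.61.

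MYH7 encodes the slow beta myosin heavy chain, the motor of the ventricle. Of its 6 probe sets 4 were lower and 2 higher. The probe set 1604415_s_at had 13.80, 14.19, 13.23 and 12.78 in control dogs and 11.24, 9.35, 10.92 and 12.32 in DM dogs, in the same order, with no overlap and a fold change of −2.54 ± 0.70 (adjusted p = 0.112). The probe set with the strongest MYH7 signal, 1592346_s_at, differed far less after quantile normalization. It had 16.78 to 16.88 in control dogs and 15.81 to 16.72 in DM dogs, without overlap. These signals lie near the top of the scale, where quantile normalization leaves little room for higher values. Its fold change was −0.57 ± 0.54 (95% interval −1.74 to 0.59). This turned to 1.26 without quantile normalization, 0.67 with median centring and 0.13 with cyclic loess. With scaling to the hybridization controls it was −1.18, which is 0.47 above the median of all probe sets. The light chains of the atrium overlapped between the groups. MYL4, the atrial and fetal essential light chain, had 9.45, 10.28, 8.79 and 8.19 in control dogs and 9.14, 6.55, 4.89 and 8.08 in DM dogs, which overlap (−2.01 ± 0.87, adjusted p = 0.265). MYL7, the atrial regulatory light chain, had 9.28 to 9.74 in D5 to D7, 5.08 in D8 and 4.85 to 7.47 in DM dogs (−1.95 ± 1.00, 95% interval −4.12 to 0.21, adjusted p = 0.351).

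The fast myosin heavy chains of skeletal muscle, MYH1, MYH2 and MYH4, gave the only higher thick filament probe sets at an unadjusted p under 0.05, 3 of their 5. MYH2 1603642_at had 4.73, 4.89, 4.48 and 5.42 in control dogs and 7.99, 5.37, 8.40 and 6.34 in DM dogs (2.14 ± 0.72, adjusted p = 0.169), where 0294 lay just below D8. MYH1 1597355_at gave 2.05 ± 0.83 and MYH4 1.92 ± 0.79. MYH4 had 4.47 to 4.72 in control dogs and 7.85, 5.44, 4.65 and 8.19 in DM dogs, so that 1087 was at the control level. All control signals of MYH2 1603642_at and MYH4 lay below 6.12, the upper bound of class 1 in mean signal. MYBPC1, the slow skeletal myosin binding protein C, had 6 probe sets with fold changes of −1.23 to 1.40, of which 0 had an unadjusted p under 0.05.

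In the thin filament, TNNI3 had the lowest fold change of all 23836 probe sets after quantile normalization. TNNI3 is cardiac troponin I, the subunit that holds the thin filament off in the absence of calcium. Its probe set 1582664_s_at had 16.05, 16.54, 16.28 and 12.88 in control dogs D5, D6, D7 and D8, and 9.04, 9.85, 8.16 and 11.57 in DM dogs 0292, 0294, 1087 and 1111. D8 stood far below the other control dogs but above each DM dog. The fold change was −5.78 ± 0.92 (limma adjusted p = 0.061), 55.0-fold lower, and −6.58 without D8 and −6.26 without D8 and 0292. Its size depended on the scaling. It was −4.45 without quantile normalization, −5.04 with median centring, −4.26 with cyclic loess and −6.83 with the hybridization controls. A weak probe set for the same gene, 1590410_at, gave 0.96 ± 0.88 with signals of 4.79 to 8.94.

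The other troponins of the heart had smaller differences. TNNT2, cardiac troponin T, binds the complex to tropomyosin. It had 12.63, 12.43, 12.18 and 12.08 in control dogs and 9.39, 10.95, 9.82 and 11.43 in DM dogs, without overlap (−1.94 ± 0.62, adjusted p = 0.152). TNNC1, the calcium sensor of cardiac and slow muscle, had 14.66, 15.76, 14.51 and 13.60 in control dogs and 13.66, 12.77, 12.70 and 13.41 in DM dogs. D8 lay just below 0292, and the fold change was −1.50 ± 0.62 (adjusted p = 0.249). The fast skeletal forms TNNC2, TNNI2 and TNNT3 had 1.23 ± 0.71, 0.10 ± 0.74 and 0.59 ± 0.73, and the slow skeletal TNNT1 had −0.39 ± 0.89.

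The actin probe sets disagreed. ACTC1, the cardiac alpha-actin that forms most of the thin filament, had 15.46, 15.98, 15.62 and 14.93 in control dogs and 13.86, 13.12, 12.71 and 14.30 in DM dogs, without overlap (−2.00 ± 0.60, adjusted p = 0.131). Its fold change was −1.23 without quantile normalization and −3.66 with scaling to the hybridization controls. ACTA1, the skeletal alpha-actin that is also made in fetal and stressed heart, had 4 probe sets, 2 lower and 2 higher. Its 1605145_at had 12.20, 10.32, 10.43 and 11.30 in control dogs and 5.97, 8.53, 7.22 and 7.60 in DM dogs (−3.74 ± 0.70, adjusted p = 0.061, no overlap). Here D8 was the second highest control dog. In contrast, the strongest ACTA1 probe set, 1583200_s_at, had 16.44, 15.54, 15.86 and 16.84 in control dogs and 16.97, 17.13, 16.84 and 16.44 in DM dogs, which overlap. Its fold change was 0.67 ± 0.57 (95% interval −0.55 to 1.90), and −0.28 with the arrays scaled to the hybridization controls, which is 1.37 above the median of all probe sets under that scaling. The remaining pair gave 0.96 ± 0.60 (1583482_s_at) and −1.71 ± 0.80 (1603467_at).

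Tropomyosin winds along the actin filament. The strongest TPM1 probe set, 1591772_s_at, had 17.09, 17.31, 17.11 and 16.10 in control dogs and 15.46, 14.55, 15.43 and 16.49 in DM dogs, which overlap at D8 and 1111. Its fold change was −1.42 ± 0.62 (adjusted p = 0.268), but 0.35 without quantile normalization, and the other TPM1 probe sets gave −0.53 and 0.04. TPM2 1586808_at was lower in each DM dog than in each control dog (8.09 to 8.70 against 5.17 to 7.83; −1.96 ± 0.70, adjusted p = 0.190). TMOD1 caps the pointed end of the filament. Its 1583905_at had 11.70, 12.28, 11.57 and 11.00 in control dogs and 9.04, 8.72, 9.54 and 10.92 in DM dogs, with 1111 just below D8 (−2.08 ± 0.64, adjusted p = 0.139), while its other probe sets gave 0.96 ± 0.57 and 1.06 ± 0.84.

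The leiomodins, which start and lengthen actin filaments from the pointed end where tropomodulin caps them, were the members that met the criteria of the methods on the higher side. LMOD2, the main leiomodin of the heart, had 12.51, 12.25, 12.25 and 13.65 in control dogs and 13.69, 14.50, 14.02 and 14.62 in DM dogs. The groups did not overlap, though D8 reached 13.65 and 0292 13.69. The fold change was 1.55 ± 0.59 (adjusted p = 0.215), and −0.90 when arrays were scaled to the hybridization controls, which is 0.75 above the median of all probe sets under that scaling. LMOD3, known from nemaline myopathy of skeletal muscle, had 5.15, 5.77, 6.51 and 5.00 in control dogs and 7.23, 7.89, 7.57 and 7.63 in DM dogs (1.97 ± 0.58, adjusted p = 0.129). Its DM dogs were close together, and D8 was the lowest control dog, farthest from the DM dogs. It was higher under each scaling tried, by 0.24 at the least.

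**Figure D3:**
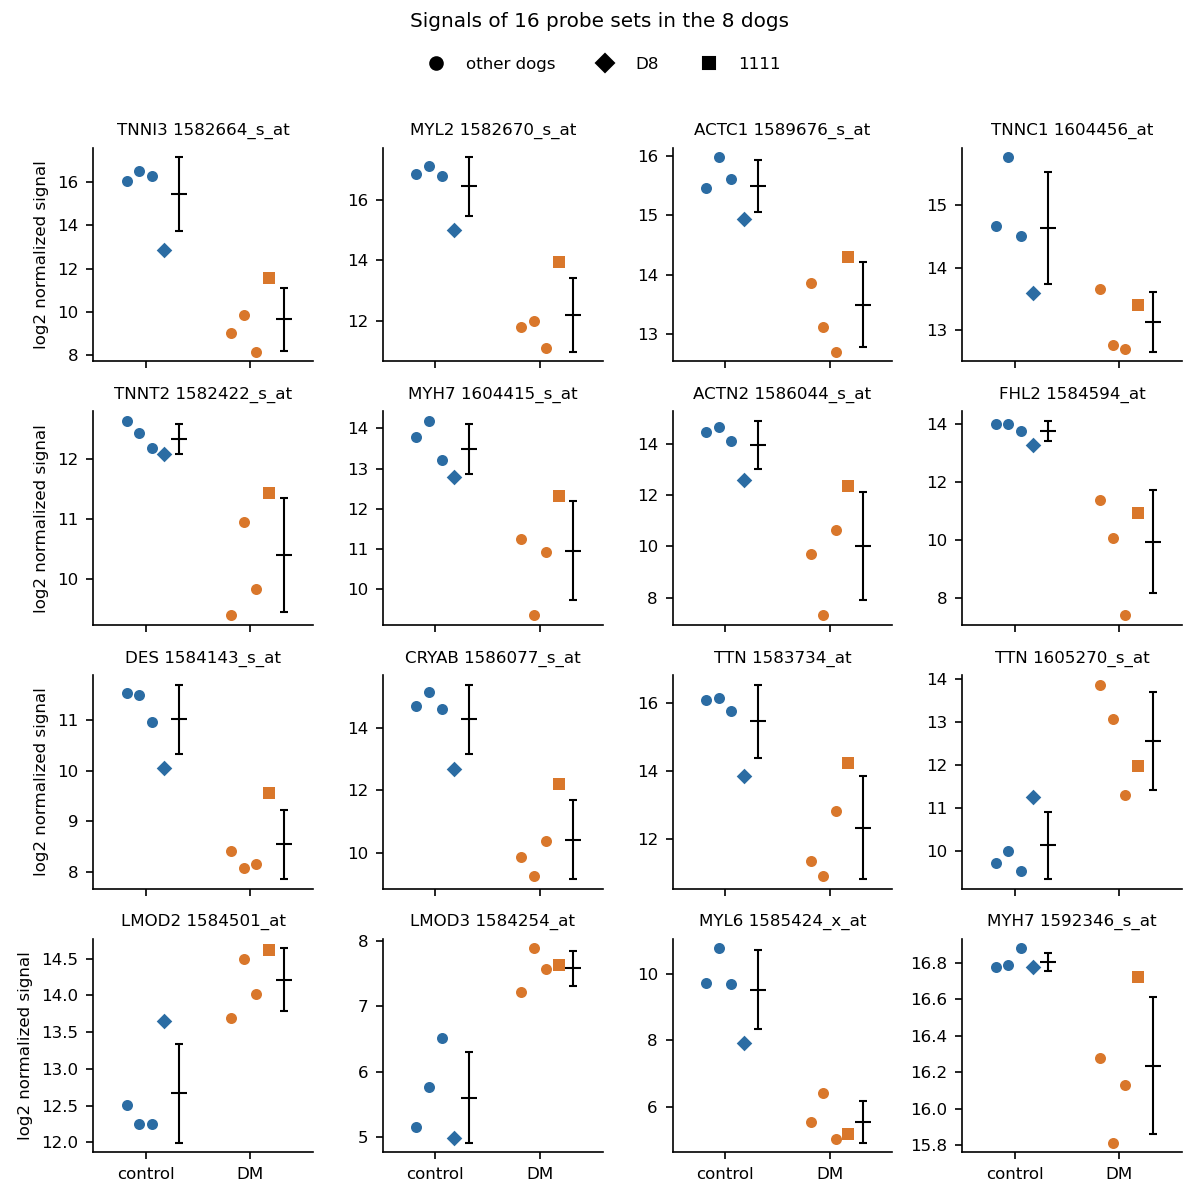
Log2 normalized signal of 16 probe sets (vertical axes, each on its own range) in 4 control dogs (blue) and 4 DM dogs (orange); diamonds are control dog D8, squares DM dog 1111, and the bars the mean and SD of each group. In TNNI3, MYL2 and TTN 1583734_at D8 lies far below the other control dogs, and LMOD2, LMOD3 and TTN 1605270_s_at are the panels with higher signals in DM dogs, which for LMOD2 and TTN turns to −0.90 and −0.24 log2 with scaling to the hybridization controls.

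Titin had 20 probe sets, the most of any member gene, and they did not move as one. Of these, 12 were lower and 8 higher in DM dogs, with a median of −0.19. At an unadjusted limma p under 0.05, 3 of the 20 were lower and 4 higher, against 8.87% and 7.84% of all probe sets. The lowest titin probe set was 1583734_at, with 16.10, 16.14, 15.76 and 13.86 in control dogs and 11.35, 10.93, 12.84 and 14.25 in DM dogs. Dog 1111 lay above D8 here, and the fold change was −3.12 ± 0.82 (adjusted p = 0.101), or −3.61 without D8. The probe set 1597523_at met the criteria of the methods, with 8.29, 7.95, 7.31 and 7.69 in control dogs and 5.18, 6.14, 6.78 and 5.67 in DM dogs (−1.87 ± 0.59, adjusted p = 0.147).

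At the other end stood TTN 1605270_s_at, with 9.74, 10.00, 9.55 and 11.28 in control dogs and 13.87, 13.08, 11.31 and 11.98 in DM dogs. Groups did not overlap, D8 was just below 1087, and the fold change was 2.42 ± 0.70 (adjusted p = 0.125). TTN 1582854_s_at had 11.60, 11.61, 11.63 and 13.31 in control dogs and 15.80, 14.16, 12.93 and 13.31 in DM dogs (2.01 ± 0.74, adjusted p = 0.200), so that D8 overlapped with the DM dogs. With the arrays scaled to the hybridization controls these turned to −0.24 and −0.25, which is 1.41 and 1.40 above the median of all probe sets. TTN 1605583_at, which the study lists, had 9.74 to 10.79 in control dogs and 10.44, 5.42, 9.63 and 9.40 in DM dogs (−1.55 ± 0.93, adjusted p = 0.426), where 0294 alone was far lower. The position of these probe sets along the titin transcript was not used here. The M band proteins that link myosin and titin were MYOM1 and MYOM2. The strong MYOM1 probe set 1583275_at, named after its values were seen, had 14.26 to 14.58 in control dogs and 14.36 to 15.12 in DM dogs (0.22 ± 0.54, 95% interval −0.94 to 1.39). The weaker MYOM1 1600209_at gave −0.62 ± 0.81, and MYOM2 1606063_at gave −1.23 ± 0.88.

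At the Z disc the cardiac alpha-actinin ACTN2, which cross-links the thin filaments, was lower in each of its 3 probe sets. ACTN2 1586044_s_at had 14.47, 14.65, 14.10 and 12.59 in control dogs and 9.70, 7.32, 10.65 and 12.37 in DM dogs, and 1111 came close to D8 without overlap (−3.95 ± 0.94, adjusted p = 0.088). The others gave −3.83 ± 0.90 (1591220_at, adjusted p = 0.087) and −1.64 ± 0.61 (1597846_at, adjusted p = 0.206). FHL2 is a LIM-only protein that binds titin and is known in the heart as a partner of signalling enzymes. Its signal was 13.99, 14.01, 13.75 and 13.26 in control dogs and 11.37, 10.06, 7.40 and 10.92 in DM dogs. The control dogs, D8 included, were close together, and each DM dog was below them (−3.81 ± 0.80, adjusted p = 0.070).

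The related LIM-only genes FHL1 and FHL3 were lower in all 7 of their probe sets. The stronger of these, FHL1 1583419_at and 1583420_at, gave −2.73 ± 0.89 and −2.38 ± 0.83 (adjusted p = 0.156 and 0.180) with 1111 at 15.58 and 15.16, inside the control range. FHL3 1600997_at had 8.77, 8.55, 8.75 and 7.75 in control dogs and 5.40, 5.63, 7.06 and 7.32 in DM dogs (−2.11 ± 0.64, adjusted p = 0.137). NRAP, a scaffold of growing myofibrils, had 10.50 to 12.15 in control dogs and 5.53 to 10.18 in DM dogs in 1584506_at (−2.92 ± 0.88, adjusted p = 0.135). MYOZ2, the calcineurin-binding Z disc protein of heart and slow muscle, had 15.17, 15.46, 15.16 and 14.86 in control dogs and 13.34, 14.07, 13.77 and 14.47 in DM dogs, without overlap (−1.25 ± 0.55, adjusted p = 0.281). The MYOZ2 fold change was −0.61 without quantile normalization and −3.05 with scaling to the hybridization controls. Of the PDZ and LIM proteins, PDLIM1 and PDLIM4 gave −2.28 ± 0.76 and −2.34 ± 1.02.

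Some Z disc transcripts with strong signals had smaller fold changes or were higher. TCAP, the cap of titin at the Z disc, had 14.57, 15.49, 14.30 and 13.97 in control dogs and 15.08, 13.80, 13.56 and 14.01 in DM dogs, which overlap, with a fold change of −0.47 ± 0.61 (95% interval −1.79 to 0.85). PDLIM5, a PDZ and LIM protein of the heart, was higher in all 3 probe sets after quantile normalization, at 0.13, 0.59 and 1.22 log2. PDLIM5 1588521_s_at had 11.03, 11.53, 11.23 and 12.32 in control dogs and 13.05, 13.19, 12.33 and 12.39 in DM dogs (1.22 ± 0.58, adjusted p = 0.310), with D8 just below 1087, and it turned to −1.46 with scaling to the hybridization controls, 0.20 above the median of all probe sets. Relative to that median, PDLIM5 1594913_at and 1594914_at were at −0.27 and −0.72 under the same scaling. FLNC, the filamin of muscle, gave 1.05 ± 0.74.

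Desmin forms the intermediate filaments that bind the Z discs of neighbouring myofibrils, and alpha B-crystallin is a small heat shock protein that protects desmin and titin. DES had 11.54, 11.49, 10.97 and 10.05 in control dogs and 8.41, 8.07, 8.15 and 9.55 in DM dogs, without overlap (−2.47 ± 0.62, adjusted p = 0.092). CRYAB 1586077_s_at had 14.71, 15.15, 14.59 and 12.67 in control dogs and 9.86, 9.27, 10.38 and 12.19 in DM dogs, again without overlap and with D8 and 1111 nearest to each other (−3.86 ± 0.77, adjusted p = 0.064). The remaining CRYAB probe sets gave −1.55, −1.22 and −0.53. The last of these, 1597268_at, had weak signals of 4.72 to 9.02.

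In the smooth muscle and non-muscle group, all 6 probe sets that were lower at an unadjusted p under 0.05 belonged to the light chain genes MYL6 and MYL9, and 0 were higher. MYL6, the essential light chain of smooth and non-muscle myosin, had 12 probe sets with a median of −1.37, and the other 18 probe sets of the group had a median of −0.13. MYL6 1585424_x_at had 9.73, 10.77, 9.69 and 7.91 in control dogs and 5.53, 6.42, 5.03 and 5.19 in DM dogs. The groups did not overlap, and D8 lay between the other control dogs and the DM dogs (−3.98 ± 0.69, adjusted p = 0.061). MYL6 1585044_x_at, which the study lists, overlapped between the groups through D8 (8.39 against 7.70 to 9.64 in DM dogs; −1.44 ± 0.73, adjusted p = 0.340). Of the 12 probe sets, 10 were lower. Most carry the suffix _x, so they can share targets with other transcripts.

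MYL9, the regulatory light chain of smooth muscle myosin, was lower in all 4 probe sets. Its strongest, 1583384_s_at, had 12.89, 13.32, 13.00 and 11.70 in control dogs and 10.38, 10.03, 10.78 and 11.78 in DM dogs, with 1111 just above D8 (−1.99 ± 0.63, adjusted p = 0.148). Other genes typical of smooth muscle differed less. MYH11, its heavy chain, had −0.93 ± 0.57, and ACTA2, its alpha-actin, had 0.41 ± 0.59 (95% interval −0.87 to 1.69). The 5 probe sets of FLNA, the widespread filamin, had fold changes of −0.60 to 1.08 and signals of 4.71 to 8.61. The highest of these, 1604976_at, was −0.05 under the hybridization control scaling, well above the −1.65 at which the median probe set then stood. The strong TPM4 probe set gave 0.04 ± 0.61.

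Of the 26 genes with more than 1 probe set, 16 had probe sets on both sides of 0. The span was widest for TNNI3, from −5.78 to 0.96, for TTN, from −3.12 to 2.42, for MYL3, from −4.18 to 0.53, and for ACTA1, from −3.74 to 0.96. A gene with only lower probe sets was MYL2, with 2, or ACTN2, with 3, and the others were CRYAB, FHL1, FHL3, MYL9, NRAP and TPM2. Only PDLIM5 and MYH1 had all their probe sets on the higher side after quantile normalization. In the case of TNNI3 and MYL3 the probe set on the other side had weaker signals, but in ACTA1 the probe sets with higher values in DM had the stronger signals.

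**Figure D4:**
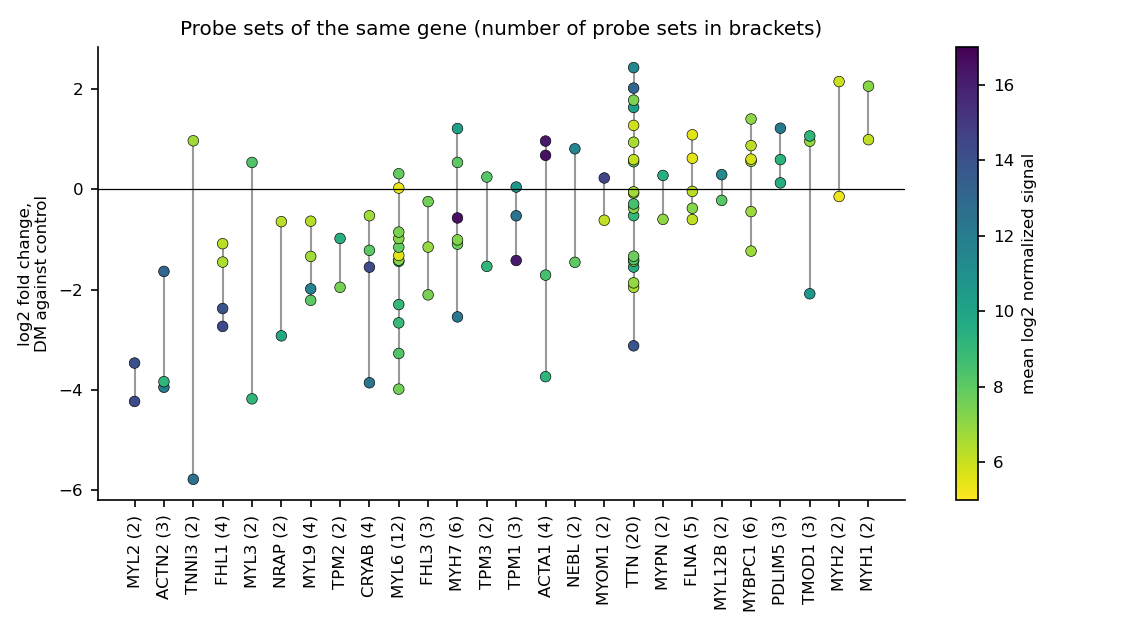
Log2 fold change (DM against control, vertical axis) of each probe set of the 26 member genes with 2 or more probe sets, ordered by the median of the gene; the colour gives the mean log2 normalized signal over the 8 dogs and the number of probe sets stands in brackets. The 20 titin probe sets spread from −3.12 to 2.42, while the probe sets of ACTN2, FHL1 and CRYAB all lie below 0. PDLIM5, the strongest ACTA1 and the highest TTN probe sets turn below 0 when arrays are scaled to the hybridization controls, which moves the median of all probe sets to −1.65.

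The relation of adult to fetal or atrial isoforms was taken as the difference of both log2 signals within an array, each gene by its probe set with the highest mean signal, for the 3 pairs that were measured. ACTA1 minus ACTC1 was 0.98, −0.44, 0.24 and 1.91 in control dogs D5, D6, D7 and D8, and 3.11, 4.01, 4.13 and 2.14 in DM dogs 0292, 0294, 1087 and 1111. Each DM dog was above each control dog, with D8 and 1111 nearest. The means were 0.67 ± 1.01 and 3.35 ± 0.92, a difference of 2.67 (exact permutation test over 70 assignments, two-sided p = 0.0286, the smallest that 4 against 4 allow; adjusted p = 0.0429). The groups overlapped under each of the other scalings (exact permutation test, p = 0.0571). With the mean over all probe sets of each gene the difference was 1.05 (exact permutation test, p = 0.200). In this pair ACTC1 differed by −2.00 and ACTA1 1583200_s_at by 0.67, and both probe sets carry the suffix _s, so they can match several transcripts. The other ACTA1 probe sets gave 0.96 (1583482_s_at), −1.71 (1603467_at) and −3.74 (1605145_at). The last of these fell more than ACTC1, so the direction of the pair depends on the ACTA1 probe set.

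For MYL7 minus MYL2 the values were −7.57, −7.37, −7.29 and −9.92 among control dogs and −5.71, −4.61, −6.25 and −6.47 among DM dogs, in the same order. Both genes had lower signals in DM dogs, MYL2 more so, and D8 lay farthest from the DM dogs. The difference was 2.28 (exact permutation test, p = 0.0286; adjusted p = 0.0429), but 1.07 without quantile normalization (p = 0.571) and 0.99 without D8 and 0292. MYL7 had 5.08 in D8 and 4.85 in 1087, weak signals that were not shown to be above background and near which the offset bounds the values from below, so this difference and its p rest in part on signals that may lie at background. MYL4 minus MYL3 was −3.39, −3.71 and −3.23 in D5, D6 and D7 but 2.18 in D8, and 1.38, −1.56, 0.04 and 0.65 in DM dogs. Here too weak signals entered, with 6.00 for MYL3 in D8 and 4.85 and 4.89 for MYL3 and MYL4 in 1087. It overlapped through D8 (difference 2.16, exact permutation test, p = 0.200).

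**Figure D5:**
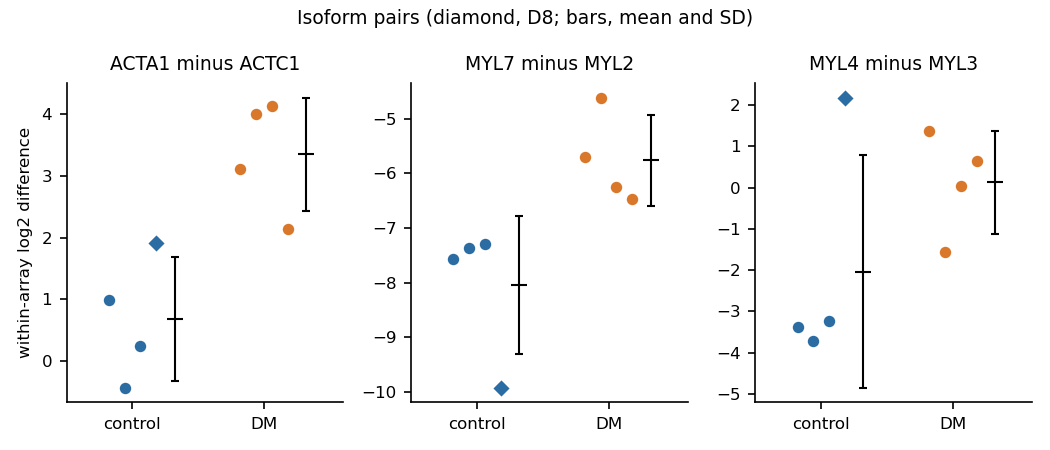
Difference of both log2 normalized signals within an array (vertical axes) for 3 isoform pairs in 4 control dogs (blue) and 4 DM dogs (orange); diamonds are control dog D8 and bars the mean and SD. ACTA1 minus ACTC1 and MYL7 minus MYL2 do not overlap between the groups after quantile normalization, and D8 lies at 2.18 among the DM dogs in MYL4 minus MYL3.

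Genes that build, fold and anchor the sarcomere were counted in the same fit, and 0 had an adjusted p under 0.05. Of 28 probe sets (19 genes) for sarcomere assembly, folding and turnover, 9 were lower (32.1%, against 8.87% of all probe sets) and 2 higher (7.14%, against 7.84%) at an unadjusted p under 0.05, with a median fold change of −0.97 over genes, each by its strongest probe set. The lowest p values were those of small heat shock proteins related to alpha B-crystallin. HSPB1 had 11.77, 11.69, 11.87 and 10.85 in control dogs and 5.34, 8.93, 6.32 and 10.19 in DM dogs (−3.85 ± 0.93, adjusted p = 0.088), and HSPB8 1589113_s_at gave −3.54 ± 0.89 (adjusted p = 0.092). Of 44 probe sets (17 genes) of the costamere and the dystrophin complex, which tie the Z disc to the membrane, 8 were lower (18.2%) and 5 higher (11.4%), with a median of 0.26 over probe sets and −0.15 over genes. These lists were not matched for signal, and in class 5 of signal 17.3% of all probe sets were lower and 10.4% higher. SPTBN1 1603866_s_at, a beta spectrin, gave −4.31 ± 0.93 (adjusted p = 0.074), and ANK3 1589252_s_at, an ankyrin that binds spectrin, gave 2.29 ± 0.60 (adjusted p = 0.100). Both genes had probe sets on both sides of 0. SPTBN1 1583284_at and 1582745_at gave −3.30 and −3.17, but 1588049_at gave 1.24 ± 0.75. For ANK3, 1592977_at gave 0.65 ± 0.72 and 1604597_at −0.90 ± 0.77. Of 7 probe sets for myosin light chain kinases and phosphatase 0 were lower and 1 was higher, and of 6 for muscle transcription factors 0 were lower or higher.

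Marker lists of cell types were counted in the same way, and the summed level is that of the strongest probe set of each gene, before the offset, on the log2 scale. Of 34 probe sets (10 genes) for cardiomyocytes that are no members, 11 were lower (32.4%, against 8.87% of all) and 1 was higher (2.94%, against 7.84%) at an unadjusted p under 0.05, with a median fold change of −0.36 over probe sets. By their strongest probe sets 6 of the 10 genes were lower and 4 higher. Their summed level was 17.92 to 18.25 per control dog and 16.21 to 17.30 per DM dog. The smallest p values were those of myoglobin, MB 1590550_s_at, with −5.04 ± 0.84, and of FABP3 1596802_at, the fatty acid binding protein of the heart, with −4.15 ± 0.75 (adjusted p = 0.061 for both). The higher one was SLC8A1 1605489_at, the sodium-calcium exchanger, with 2.39 ± 0.65 (adjusted p = 0.111), and CKMT2, the mitochondrial creatine kinase, had probe sets from −2.45 to 1.55. The summed level of the macrophage and monocyte list (12 probe sets, 9 genes, 0 lower and 3 higher) was 12.11 to 13.39 in control dogs and 14.24 to 16.48 in DM dogs, above each control dog. The 3 higher probe sets are 25% of the list, against 7.84% of all. Its genes did not move as one. Judged by the strongest probe set of each, 5 rose and 4 fell in DM, and their middle fold change was 0.51. A sum follows the strongest genes, and LYZ 1588284_at alone had 10.7 to 12.7 in control dogs and 14.1 to 16.3 in DM dogs. The summed level of the skeletal muscle list (20 probe sets, 10 genes, 0 lower and 3 higher) was 9.98 to 10.32 in control dogs and 10.42 to 11.52 in DM dogs. All its measured genes but MYLPF and ATP2A1 are members. Its 3 higher probe sets are those of MYH1, MYH2 and MYH4 given above, so this list adds little beyond the members. For endothelial cells (17 probe sets), fibroblasts (19) and smooth muscle cells and pericytes (19), 3, 4 and 4 were lower (17.6%, 21.1% and 21.1%, against 8.87% of all). On the higher side there were 1, 1 and 0 (5.88%, 5.26% and 0%, against 7.84%). Their median fold changes were −1.20, 0.07 and 0.06 over probe sets. Over genes they were −0.74, −0.72 and 0.06, where the cardiomyocyte list had −0.74. The summed levels of these 3 lists overlapped between the groups. None of the marker lists was matched for signal, and in class 5 of signal 17.3% of all probe sets were lower and 10.4% higher. The atrial list held only the members MYL4 and MYL7, of which MYL4 was lower at an unadjusted p under 0.05. No probe set was named for a gene of the red blood cell list, which was therefore not analysed here. The part of these cell types in the results of the members was not tested.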

How the data were processed

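RNA from left ventricle was extracted with Trizol in 4 control and 4 DM dogs and hybridized to the Affymetrix Canine Genome Array, 1 array per dog. According to the methods and labels, the authors computed 1 signal intensity per probe set with MAS 5.0, and the deposited intensities are linear, with each array scaled to a trimmed mean of 500. The RMA values that the methods name were not used here. A general text in the deposit names larger groups than the methods do, and these 8 arrays were analysed. Nothing in the labels separates the dogs beyond their numbers, so p values measure the spread between these samples.

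Control probe sets of the manufacturer (77) were left out. The 23836 other probe sets were quantile normalized, 16 was added and log2 taken. DM and control were compared with limma 3.58.1 in R 4.3.3 (lmFit and eBayes, two-sided, Benjamini-Hochberg over all probe sets, threshold 0.05), on all 8 arrays with no covariate. The criteria of the methods were applied as a two-class test with equal variances, P of at most 0.01 and at least 2-fold, to the same values. Isoform pairs and array measures were compared by exact permutation (scipy 1.17.1). Figures were drawn with matplotlib 3.10.9. Only the normalization and the limma fit were tested on simulated data, in which as many probe sets were raised as lowered.

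Gene symbols are those of GEO's platform annotation, which names 1 gene for 10549 probe sets, several for 138 and none for 13149. Gene identifiers of 132 of the 141 members matched RefSeq, and 0 symbols changed. Named genes were those the study lists for contraction, each by its strongest probe set, the 12 members with the smallest p, those past the criteria of the methods, the isoform pairs, the extremes of each role, and genes with 3 or more probe sets. The study chose its listed genes on these dogs, so they are no independent evidence. Members, lists and tests were chosen with earlier results of these data known. The alternatives were other scalings, offsets of 1 and 64, a filter on mean signal, array quality weights, an intensity trend, leaving out dogs, other choices of probe sets, and, added after seeing the data, only probe sets with no suffix.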

Additional observations from a re-analysis of the deposited data

Results flagged for a closer look

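In groups of 4, a highest or lowest dog was looked for whose gap to the nearest other dog takes most of the range (Dixon's 95% critical value, which chance exceeds in about 1 of 20 groups). Of 74 groups tested, 6 held such a dog, and in all 6 it was control dog D8. In TNNI3 1582664_s_at, D8 had 12.88 log2 where the other control dogs had 16.05 to 16.54. In MYL2 1582670_s_at it had 15.00 against 16.79 to 17.11, in TTN 1583734_at 13.86 against 15.76 to 16.14, and in MYL7 1589650_x_at 5.08 against 9.28 to 9.74. The pair MYL7 minus MYL2 was −9.92 in D8 and −7.57 to −7.29 in the other control dogs, and MYL4 minus MYL3 was 2.18 against −3.71 to −3.23. These groups share the same array, so they are not independent of each other.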

How the results depend on the processing

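The number of members with an adjusted limma p under 0.05 was 0 with all dogs and quantile normalization, without quantile normalization, with an offset of 1, with the filter on mean signal (98 members) and among probe sets with no suffix. It was 1 with cyclic loess, 7 with median centring, 12 with an offset of 64, 17 with array quality weights, 26 with an intensity trend, 71 with scaling to the hybridization controls, 15 without D8 and 0292, and 0 to 12 when each dog was left out in turn. Of all probe sets, 922 passed with array quality weights, 804 with the intensity trend and 7672 with the hybridization controls. The count over all probe sets is not given here for the other alternatives. The members past the criteria of the methods numbered 16, and 10 with median centring, 8 among probe sets with no suffix and 7 to 26 when each dog was left out. The split was 18 lower and 0 higher with the hybridization controls. Members without overlap numbered 25, and 16 with median centring, 69 without D8 and 0292, 11 among probe sets with no suffix and 25 to 54 with a dog left out. Groups of fewer dogs fail to overlap more easily in any probe set, so the counts with dogs left out cannot be set against 25. For the counts past the criteria and without overlap, no share of all probe sets is given here under these alternatives. The median of −0.53 moved to −0.23 without quantile normalization, −0.82 with median centring, −2.36 with the hybridization controls and −0.996 with the filter, and it was −0.69 to −0.45 with a dog left out. ACTA1 minus ACTC1 (2.67) was 3.39 without quantile normalization and with median centring, 2.61 with cyclic loess and 3.38 with the hybridization controls, each with p = 0.0571 by the exact permutation test, and 1.05 with the mean over all probe sets. MYL7 minus MYL2 (2.28) was 1.07 without quantile normalization and with median centring, 1.16 with cyclic loess, 1.39 with the hybridization controls and 0.99 without D8 and 0292. MYL4 minus MYL3 (2.16) turned to −0.19 with the mean over all probe sets. With the hybridization controls LMOD2 turned to −0.90, ACTA1 1583200_s_at to −0.28, PDLIM5 1588521_s_at to −1.46, FLNA 1604976_at to −0.053 and TTN 1605270_s_at to −0.24, TPM1 1591772_s_at was 0.35 without quantile normalization, and CRYAB 1597268_at was −1.39 to 0.040 with a dog left out, above 0 without 0294. The cause was not tested. No paired analysis was possible because the dogs of both groups share no numbers in the labels.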
